A study of Homo sapiens with 7 samples.

Results

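In PIXUL-ChIP-seq of HCT116 cells, a human colorectal carcinoma line, 14108 of the 50521 deposited H3K4m1 intervals (27.9%) lay more than 5 kb from every protein-coding transcription start site (TSS) and overlapped no deposited interval of H3K9Ac, H3K4m3 or H3K36m3. They were chosen by these 4 peak lists and by GENCODE TSS positions on hg19, and are called H3K4m1-only intervals here. They made up 46.6% of the 30300 H3K4m1 intervals that were distal, that is, over 5 kb from a coding TSS. PIXUL is a microplate sonicator, and each library came from 1 well of about 200000 HCT116 cells, cross-linked, sheared for 6 min and precipitated with 1 antibody, with 1 library per mark. CTCF and H3K27m3, which the choice did not use, and the genome sequence were the independent readouts. With 1 library per mark no difference has a replicate check and no test was made. Each share is given with its 95% Wilson interval in parentheses, which reflects counting error alone. The lists do not give the sequencing depth.

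Monomethylation of histone H3 lysine 4 is deposited mainly by MLL3 and MLL4 (KMT2C and KMT2D) and marks enhancers before, during and after their use. Acetylation of H3K9 or H3K27 accompanies enhancers that are in use, trimethylation of H3K4 marks promoters and H3K36m3 the bodies of transcribed genes. Enhancers with H3K4m1 and without H3K27Ac are commonly called primed. The H3K27Ac library was not analysed here, so the name primed could not be checked against it, and H3K9Ac stood in for acetylation. AP-1, a dimer of FOS and JUN family proteins downstream of MAPK signaling, and TEAD factors, the DNA-binding partners of YAP, are well known at enhancers of epithelial cancer lines. CTCF binds insulators and loop anchors, and H3K27m3 is the mark of Polycomb repression.

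The sequence at the midpoints is shown first, since the AP-1 motif was the one whose share stood the most percentage points above the rest of the distal genome. All are on the plus strand of hg19, with the match in capitals and 70 bp on each side of it. For each of AP-1, TEAD and the CTCF core the interval with the highest H3K4m1 fold enrichment is shown. The next 2 for AP-1 and the next 1 for the CTCF core were added after their values were seen. The AP-1 letters are TGANTCA.
AP-1, intron of SLCO2A1, chr3:133662474-133662620: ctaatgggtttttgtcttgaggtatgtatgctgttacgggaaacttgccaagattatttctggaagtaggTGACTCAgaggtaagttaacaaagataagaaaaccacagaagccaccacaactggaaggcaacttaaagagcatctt
AP-1, between genes, nearest coding TSS PITRM1, chr10:3356532-3356678: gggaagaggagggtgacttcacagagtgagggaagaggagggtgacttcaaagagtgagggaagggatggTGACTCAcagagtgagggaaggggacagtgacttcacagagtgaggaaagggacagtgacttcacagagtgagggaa
AP-1, intron of the lncRNA SCIRT, chr6:43978605-43978751: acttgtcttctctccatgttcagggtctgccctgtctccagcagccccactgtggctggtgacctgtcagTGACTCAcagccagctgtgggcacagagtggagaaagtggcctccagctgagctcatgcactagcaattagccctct
TEAD (GGAATG), between genes, nearest coding TSS NDFIP1, chr5:141595433-141595578: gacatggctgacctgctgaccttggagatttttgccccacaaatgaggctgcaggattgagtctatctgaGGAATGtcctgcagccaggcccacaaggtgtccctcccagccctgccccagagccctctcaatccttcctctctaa
CTCF core, between genes, nearest coding TSS RNF182, chr6:13874081-13874232: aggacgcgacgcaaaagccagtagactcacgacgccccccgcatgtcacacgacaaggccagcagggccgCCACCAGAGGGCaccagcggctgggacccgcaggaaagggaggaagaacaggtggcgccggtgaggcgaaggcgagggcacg
CTCF core, between genes, nearest coding TSS FAM222A, chr12:110134126-110134277: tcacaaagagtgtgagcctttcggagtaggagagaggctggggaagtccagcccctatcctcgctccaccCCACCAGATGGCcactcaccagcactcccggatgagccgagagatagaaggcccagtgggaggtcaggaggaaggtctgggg
The stretch on chromosome 10 is part of a local repeat: 64.2% of the 20-base words of its interval occurred there more than once. The RNF182 interval lay under a CTCF peak with a fold enrichment of 17.9, whereas the FAM222A interval overlapped no CTCF peak.

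An AP-1 match was found in the central 500 bp of 5973 of the 14108 H3K4m1-only intervals, 42.3% (41.5 to 43.2%). All distal 500-bp tiles of hg19 held one in 15.3%, and distal H3K4m1 intervals that overlapped H3K9Ac (14655 intervals) in 31.6% (30.9 to 32.4%). The 1495 distal intervals with H3K36m3 and no H3K9Ac held one in 29.4% (27.2 to 31.8%). Over whole intervals, where those with H3K9Ac are the wider, the order of the shares turned: 54.6% of H3K4m1-only intervals and 68.0% of those with H3K9Ac held a match, at 0.852 and 0.557 matches per kb. The share in the central 500 bp was higher with the height of the H3K4m1 peak. It was 37.5% (35.1 to 39.9%) at a fold enrichment under 3, 40.7% (39.7 to 41.7%) from 3 to 4, 48.5% (46.7 to 50.4%) from 4 to 5, 51.2% (46.9 to 55.5%) from 5 to 6 and 60.2% (50.1 to 69.6%) among the 93 intervals over 6. With H3K9Ac it ran from 21.3% (17.1 to 26.3%) under 3 to 34.9% (33.3 to 36.6%) from 5 to 6, and was 33.6% (31.9 to 35.4%) over 6. Matches were densest at the midpoint, at 1.12 per kb, and stood at 0.369 per kb at 700 bp, beside 0.337 per kb over the distal tiles. With H3K9Ac the density was 0.807 per kb at the midpoint and 0.437 at 700 bp, a lower and broader summit.

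**Figure D1:**
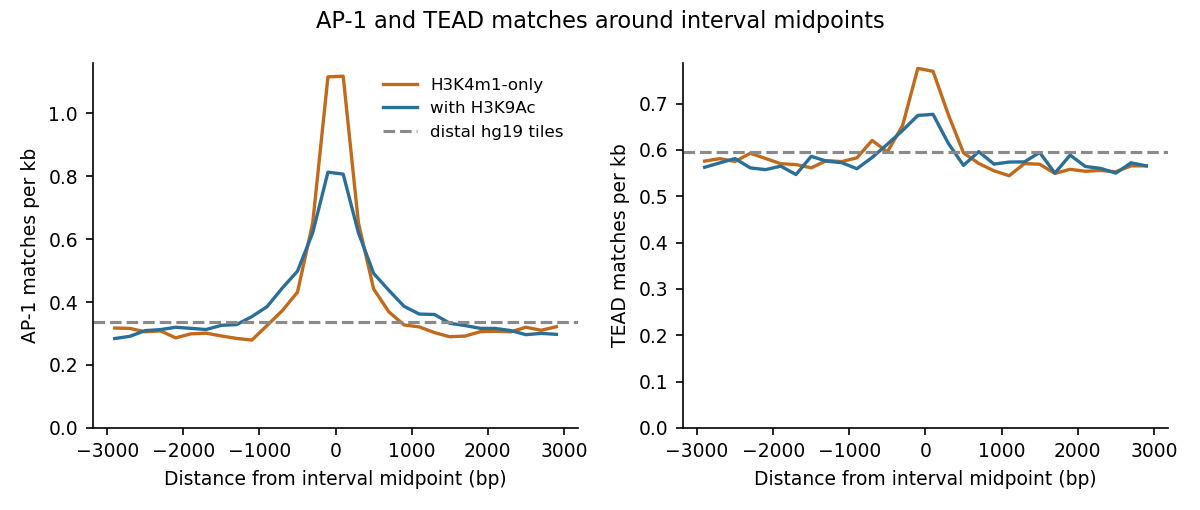
Density of AP-1 and TEAD matches (matches per kb, vertical axes) against distance from the interval midpoint (bp) for H3K4m1-only intervals and distal intervals with H3K9Ac, with the mean of distal hg19 tiles as a dashed line. AP-1 reached 1.12 per kb at the midpoint of H3K4m1-only intervals, and the TEAD summit was far shallower.

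The AP-1 shares kept their order in windows of like base composition. The median GC content of the central 500 bp was 46.0% in H3K4m1-only intervals, 47.4% with H3K9Ac and 39.6% in the tiles. Among windows of 40 to 45% GC, AP-1 matches were found in 47.5% (45.7 to 49.2%) of H3K4m1-only intervals, 39.3% (37.5 to 41.1%) with H3K9Ac and 16.5% of tiles. Among windows over 55% GC the shares were 26.3% (24.4 to 28.3%), 19.2% (18.0 to 20.5%) and 9.33%. The order of the 3 groups was the same in each GC range.

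The difference in AP-1 between the 2 classes depended on width and on CTCF. Intervals under a CTCF peak held AP-1 less often in both, in 23.5% (21.7 to 25.4%) of H3K4m1-only intervals and 19.3% (18.2 to 20.5%) of those with H3K9Ac. Without a CTCF peak the shares were 45.4% (44.5 to 46.3%) and 37.5% (36.6 to 38.5%). Among intervals without CTCF of 500 to 1000 bp, 48.7% (47.3 to 50.1%) of the H3K4m1-only intervals and 38.8% (35.7 to 41.9%) of those with H3K9Ac held a match. From 1000 to 2000 bp the shares were 47.0% (45.4 to 48.6%) and 47.5% (45.8 to 49.2%), with overlapping intervals. Over 2000 bp they were 28.0% (25.1 to 31.1%) and 31.9% (30.6 to 33.1%), in the opposite order. Without CTCF, the H3K4m1-only class was thus higher in the width ranges up to 1000 bp and not above them.

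**Figure D2:**
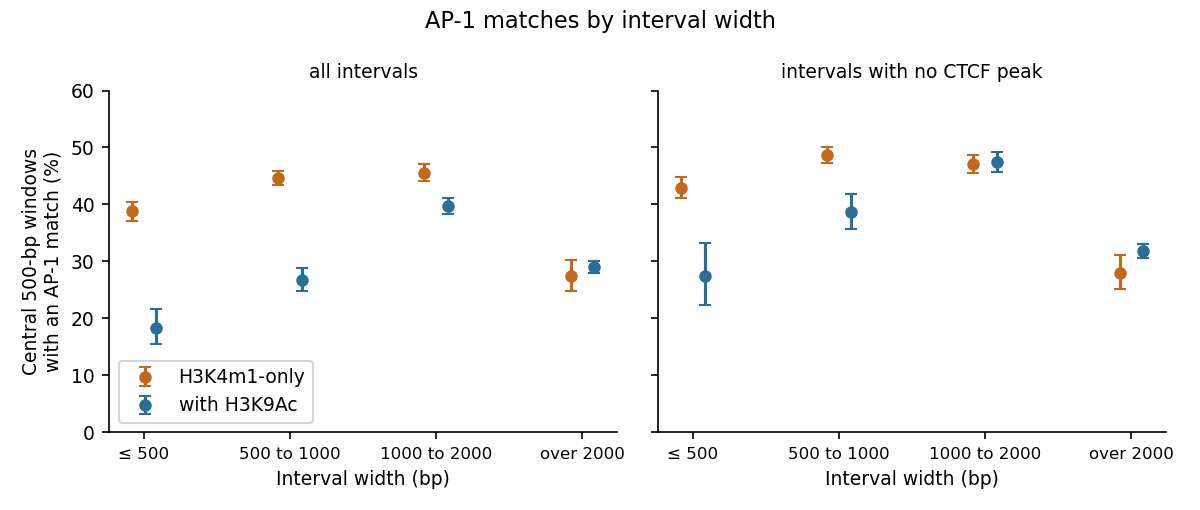
Share of central 500-bp windows with an AP-1 match (%, vertical axes) by interval width (bp), for all intervals at the left and intervals with no CTCF peak at the right. Points are shares and bars 95% Wilson intervals. Without CTCF the classes met at 1000 to 2000 bp (47.0% and 47.5%).

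In percentage points the other motifs were closer to the distal genome, although in pooled windows the rare CTCF core and SP motifs were further from it as a ratio of shares. For SP this depended on base composition. At 45 to 50% GC SP was nearer than AP-1 as a ratio, at 1.05% (0.761 to 1.44%) beside 0.573% of tiles, against 43.5% and 15.1% for AP-1. Under 35% GC SP was further, at 0.517% (0.221 to 1.20%) beside 0.0555%, against 44.2% and 15.5% for AP-1. The CTCF core was found in 1.72% (1.51 to 1.94%) of H3K4m1-only windows, 2.37% (2.13 to 2.63%) with H3K9Ac and 0.171% of tiles. TEAD matches were found in 31.1% (30.3 to 31.9%) of H3K4m1-only windows, 27.8% (27.1 to 28.6%) with H3K9Ac and 24.6% of tiles. KLF (GGGTGTGG, bound by Krüppel-like factors) was found in 9.22% (8.76 to 9.71%), 7.84% (7.42 to 8.29%) and 3.76%, and RUNX (TGTGGTT) in 11.6% (11.0 to 12.1%), 10.02% (9.55 to 10.5%) and 9.67%. The KLF share was higher still in distal intervals with H3K36m3 and no H3K9Ac, at 11.4% (9.86 to 13.1%). The E-box CAGCTG, recognised by basic helix-loop-helix factors, occurred in 24.2% (23.5 to 24.96%), 25.4% (24.7 to 26.1%) and 15.7%. In windows of like GC content KLF and the E-box were closer to the tiles in percentage points. At 45 to 50% GC the E-box was found in 23.75% (22.4 to 25.2%) of H3K4m1-only windows and 22.0% of tiles, and KLF in 10.8% (9.86 to 11.9%) and 7.55%. Over 55% GC the E-box shares were 41.7% (39.6 to 43.9%) and 40.7%. RUNX and TEAD were closer to the tiles in some GC ranges and further in others. RUNX was further at 35 to 40% GC, at 15.3% (13.8 to 16.9%) beside 11.5%. It was closer at 50 to 55%, at 9.87% (8.73 to 11.1%) beside 8.25%. TEAD was further at 40 to 45% GC, at 33.4% (31.8 to 35.1%) beside 25.8%. It was closer at 35 to 40%, at 32.4% (30.4 to 34.4%) beside 26.9%. ETS (ACAGGAAGT) was rare, at 1.33% (1.15 to 1.53%), 1.17% (1.01 to 1.36%) and 0.636%. The GC-rich SP motif GGGGCGGGG, typical of promoters, was found in 1.84% (1.63 to 2.07%) of H3K4m1-only windows, 4.03% (3.73 to 4.36%) with H3K9Ac and 0.453% of tiles.

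Motifs of gut lineage and Wnt factors were not more frequent than in the distal tiles when all windows were pooled, and this order depended on base composition. The motif AGATAA of GATA factors was found in 25.4% (24.7 to 26.2%) of H3K4m1-only windows and 33.4% of tiles, and CDX (TTTATGG) in 7.49% (7.06 to 7.93%) and 10.1%. FOX (TGTTTAC) stood at 7.22% (6.80 to 7.65%) and 7.86%, and TCF/LEF (ATCAAAG), the motif of Wnt effectors, at 8.22% (7.78 to 8.69%) and 8.44%. These short motifs are rich in A and T, and the tiles have the lower GC content. In windows of like GC content TCF/LEF was above the tiles in each range, with 9.86% (8.88 to 10.9%) beside 7.79% at 40 to 45% GC and 7.45% (6.63 to 8.36%) beside 6.08% at 45 to 50%. Its interval included the tile share under 35% GC (10.96 to 15.2% beside 11.2%) and over 55% GC (2.97 to 4.64% beside 2.99%). Windows with H3K9Ac were also above the tiles, at 9.04% (8.03 to 10.2%) at 40 to 45% GC and 6.84% (5.97 to 7.83%) at 45 to 50%. In H3K4m1-only windows FOX was above the tiles in each range but the one over 55% GC. At 40 to 45% it stood at 8.23% (7.33 to 9.24%) beside 6.81%, and windows with H3K9Ac had 8.32% (7.35 to 9.40%). The FOX interval of H3K4m1-only windows included the tile share at 45 to 50% GC (5.03 to 6.56% beside 5.09%). It also did so at 50 to 55% GC (4.42 to 6.24% beside 4.50%). Windows with H3K9Ac had 6.63% (5.77 to 7.60%) at 45 to 50%. GATA was close to the tiles, at 31.7% (30.1 to 33.3%) beside 30.4% at 40 to 45% and 22.65% (21.3 to 24.1%) beside 22.4% at 45 to 50%. CDX was likewise close, at 9.27% (8.31 to 10.3%) beside 9.84% at 40 to 45% and 6.00% (5.27 to 6.83%) beside 6.07% at 45 to 50%. All motifs were searched on both strands, and a match is a description of letters, not a bound site.

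**Figure D3:**
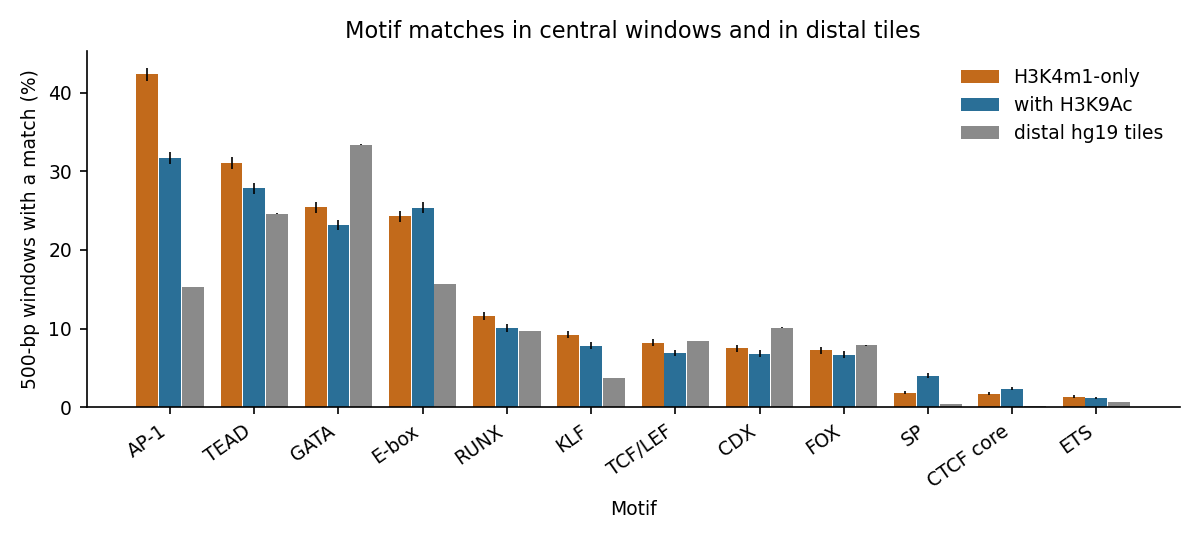
Share of 500-bp windows with a match to each of 12 motifs (%, vertical axis) in H3K4m1-only intervals, distal intervals with H3K9Ac and all distal hg19 tiles. Bars start at 0 and error bars are 95% Wilson intervals. AP-1 stands the most percentage points above the tiles (42.3% and 15.3%), and GATA and CDX lie below them in these pooled windows, but close to them at 45 to 50% GC (GATA 22.65% and 22.4%, CDX 6.00% and 6.07%).

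The CTCF list touched these intervals less often than distal intervals with H3K9Ac, but not less often than the other distal class without it. A CTCF peak overlapped 1977 H3K4m1-only intervals, 14.0% (13.5 to 14.6%), beside 27% of all H3K4m1 intervals and 32.3% (31.5 to 33.0%) of distal intervals with H3K9Ac. Distal intervals with H3K36m3 and no H3K9Ac had a share of 12.5% (10.9 to 14.3%), whose interval overlapped that of the H3K4m1-only class. In the central 500 bp, a window of equal size in all classes, the shares were 12.6% (12.03 to 13.1%) and 22.7% (22.0 to 23.4%), 10.5% (9.05 to 12.2%) with H3K36m3 and no H3K9Ac, and 1.62% of distal tiles were touched. Such a window reaches beyond intervals narrower than 500 bp and covers only part of wider ones, so it does not remove the part of width. Against the class with H3K9Ac, the share was lower in H3K4m1-only intervals on 24 of 24 chromosomes and in each of the 4 ranges of width and 5 of fold enrichment. Up to 500 bp it was 18.5% (17.2 to 19.9%) beside 57.3% (53.3 to 61.1%) with H3K9Ac, and over 2000 bp 11.9% (10.05 to 14.1%) beside 27.3% (26.4 to 28.4%).

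CTCF peaks over the 2 classes were close in their content of the CTCF core, the central bases of its binding motif, and were lower over H3K4m1-only intervals. The highest CTCF peak over each interval had a median fold enrichment of 9.45 in H3K4m1-only intervals and 10.8 with H3K9Ac. By interval width these medians were 10.4 and 11.8 up to 500 bp and 9.83 and 12.8 from 500 to 1000 bp. They were 7.43 and 11.4 from 1000 to 2000 bp and 6.44 and 8.84 over 2000 bp. The CTCF core was found in 395 of the 1974 CTCF peaks that touched H3K4m1-only intervals, 20.01% (18.3 to 21.8%), and in 18.3% (17.3 to 19.5%) of those that touched intervals with H3K9Ac. CTCF peaks that touched no H3K4m1 interval had it in 16.3% (15.9 to 16.7%). Of the 242 H3K4m1-only intervals with the core in the central window, 92.1% (88.1 to 94.9%) overlapped a CTCF peak. The core occurred in 0.171% of distal tiles. The highest CTCF peak, with a fold enrichment of 39.0, lay over chr16:85454056-85454447, an H3K4m1-only interval of 392 bp in an intron of GSE1. The next were over chr12:127765372-127765790 in an intron of the lncRNA LINC02376 (27.8) and chr17:3907483-3908472 in a UTR of ZZEF1 (26.98).

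H3K27m3 was rare over H3K4m1-only intervals and below its level in the distal genome. A peak of it overlapped 604 of them, 4.28% (3.96 to 4.63%), close to the 4.04% of all H3K4m1 intervals and to 3.94% (3.63 to 4.26%) with H3K9Ac. In the central 500 bp the share was 3.54% (3.24 to 3.85%), beside 1.92% (1.71 to 2.15%) with H3K9Ac, 0.535% (0.271 to 1.05%) of distal intervals with H3K36m3 and no H3K9Ac, and 8.95% of distal tiles. Over whole intervals the share was above that with H3K9Ac on 14 of 24 chromosomes, and up to 500 bp in width it was below it, at 4.15% (3.53 to 4.89%) beside 6.77% (5.03 to 9.05%). Of the 604 intervals, 335 lay wholly inside the H3K27m3 peak and 98 under a peak past the limits of the Methods (q-value below 1e-03 and fold enrichment above 2). Only 1552 of the 55270 deposited H3K27m3 peaks passed these limits, so the shares over all peaks, tiles included, rest mostly on peaks below them. The peak names in the H3K27m3 list do not carry the cell line's name, unlike those of the other lists, so its origin rests on the label.

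Counted over all deposited H3K27m3 peaks, the H3K27m3 share was higher in taller H3K4m1-only intervals. It was 2.85% (2.13 to 3.81%) under a fold enrichment of 3, 4.06% (3.68 to 4.48%) from 3 to 4, 4.74% (4.004 to 5.61%) from 4 to 5, 7.03% (5.12 to 9.58%) from 5 to 6 and 21.5% (14.4 to 30.9%) over 6, where 20 of 93 intervals overlapped. With H3K27m3 peaks past the limits of the Methods alone there was no such rise up to 6. In the same order the shares were 0.713% (0.399 to 1.27%), 0.617% (0.477 to 0.798%), 0.845% (0.564 to 1.27%), 0.781% (0.304 to 1.99%) and 3.23% (1.10 to 9.06%), the last from 3 of 93. With H3K9Ac and all H3K27m3 peaks the share was 8.00% (5.43 to 11.6%) under 3, above that of the H3K4m1-only class. Above 3 it also rose with height. It was 2.13% (1.73 to 2.64%) from 3 to 4, 3.02% (2.56 to 3.55%) from 4 to 5, 3.90% (3.27 to 4.64%) from 5 to 6 and 7.62% (6.69 to 8.67%) over 6. Over all H3K27m3 peaks, leaving out H3K4m1-only intervals in which at least 10% of the 20-base words were repeated left 19 of 89 (21.3%, 14.1 to 31.0%) over 6. Intervals with H3K27m3 lay a median of 33457 bp from the nearest H3K9Ac peak and 57535 bp from a coding TSS, and those without it 16468.5 and 35420 bp. AP-1 matches were about as frequent in both, at 41.6% (37.7 to 45.5%) and 42.4% (41.5 to 43.2%). The highest H3K27m3 peak over an H3K4m1-only interval, with a fold enrichment of 12.2, lay over chr10:1281392-1282422. The midpoint of that interval was in an intron of ADARB2 and within the lncRNA gene LINC00200. The next 2 intervals, chr1:2630760-2631059 and chr1:2617853-2619846 in introns of TTC34, each overlapped H3K27m3 at a fold enrichment of 9.09. In these 3 intervals 85.2%, 35.6% and 42.8% of the 20-base words were repeated, beside 1.56% of H3K4m1-only intervals in which 10% or more were. The part of repeats in these peaks was not tested.

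**Figure D4:**
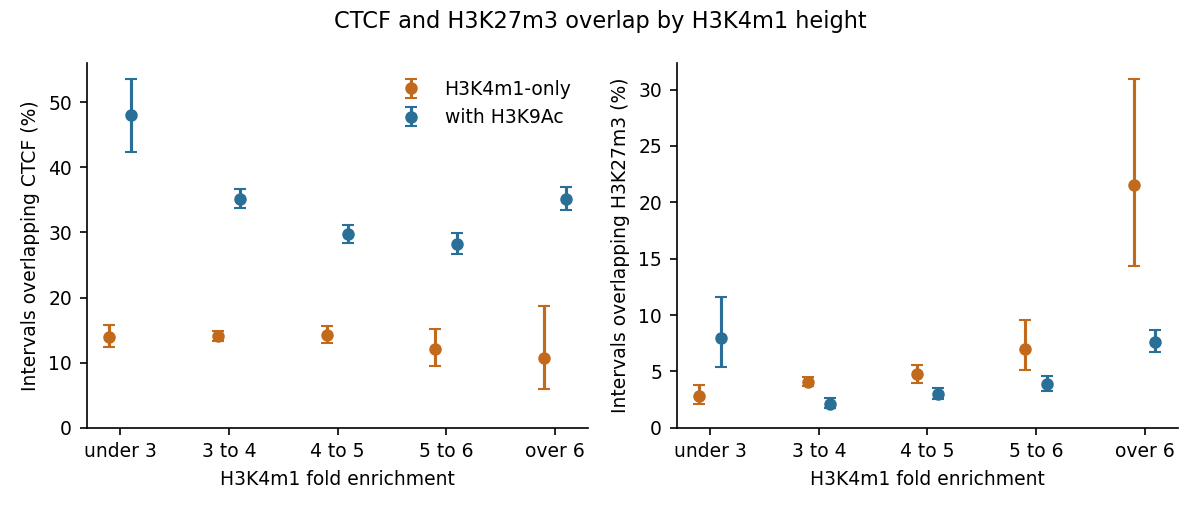
Share of distal intervals that overlap a CTCF peak (left) and an H3K27m3 peak (right) in percent, by H3K4m1 fold enrichment, for H3K4m1-only intervals and intervals with H3K9Ac. Points are shares and bars 95% Wilson intervals. The CTCF share stays between 10.8% and 14.3% in H3K4m1-only intervals, and the H3K27m3 share reaches 21.5% over a fold enrichment of 6. With H3K27m3 peaks past the limits of the Methods alone, the latter was 3.23% (3 of 93).

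The H3K4m1 values themselves come from the library that chose the intervals and are given as a description. H3K4m1-only intervals had a median H3K4m1 fold enrichment of 3.51 (quartiles 3.20 and 3.96, range 1.24 to 8.35), a −log10 q-value of 2.58 at the median and a width of 799.5 bp (513 and 1222, range 300 to 7558). Distal intervals with H3K9Ac had medians of 4.64 and 2056 bp. Of the H3K4m1-only intervals, 5383 (38.2%, 37.4 to 39.0%) passed the limits of the Methods, beside 63.9% of all H3K4m1 intervals and 82.3% (81.7 to 82.9%) with H3K9Ac. They covered 13.7 Mb and those with H3K9Ac 43.6 Mb. The 2 classes overlapped widely in height and width, with the H3K4m1-only class at the low end of both.

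**Figure D5:**
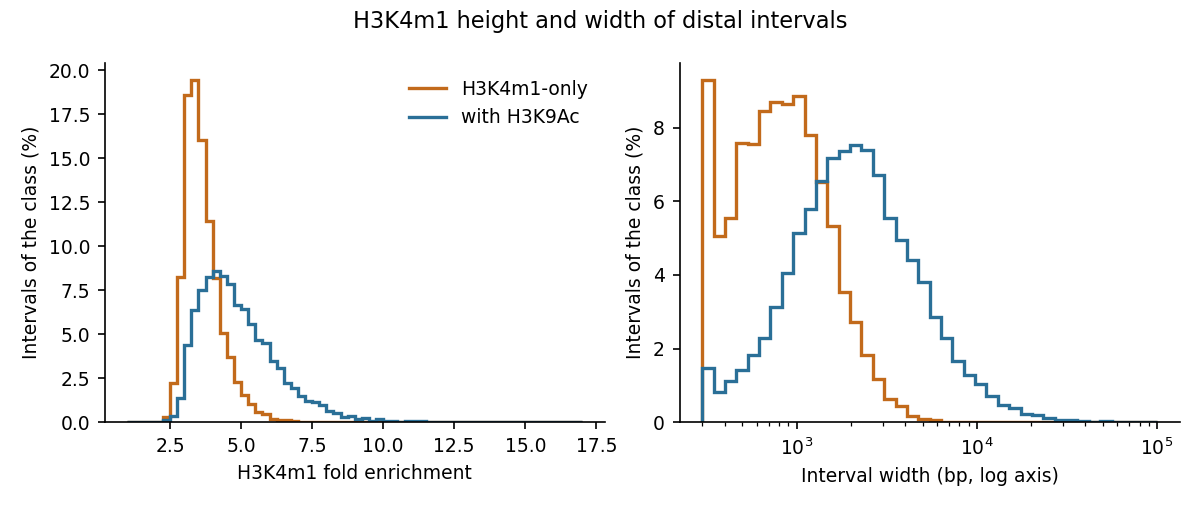
Distribution of H3K4m1 fold enrichment (left) and interval width in bp on a log axis (right) as percent of the intervals of each class. H3K4m1-only intervals center at 3.51 and 799.5 bp, and intervals with H3K9Ac at 4.64 and 2056 bp.

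Among the 10 H3K4m1-only intervals with the highest fold enrichment, 7 held an AP-1 match in the central 500 bp, 4 overlapped H3K27m3 and 2 overlapped CTCF. The first, chr3:133660429-133664718 (fold enrichment 8.35), lay in an intron of SLCO2A1, a prostaglandin transporter, under an H3K27m3 peak of 3.69. The second was chr10:3355747-3357376 (8.08), between genes and 140714 bp from the TSS of PITRM1, with an H3K27m3 peak of 3.29. The third, chr6:43977856-43979662 (7.86), was in an intron of SCIRT, 4295 bp from an H3K9Ac peak. The fourth, chr9:135732697-135733992 (7.62), in an intron of AK8, an adenylate kinase, overlapped CTCF (7.39) and H3K27m3 (3.38). The tenth, chr2:5768299-5769044 (7.17), lay in introns of LINC01248 and a second lncRNA, with SOX11, a developmental transcription factor, as nearest coding TSS at 63472 bp. Its nearest H3K9Ac peak was 1236046 bp away, the longest such distance of the 10, and hg19 held 1 further copy of it at 95% identity or more. No other copy was found for the remaining 18 of the 19 intervals searched, which were the 10 highest, the 3 widest and the 3 each under the highest CTCF and H3K27m3 peaks. The 3 widest lay in introns of SPRED2, a MAPK inhibitor (7558 bp), of ZNRF3, a Wnt receptor ubiquitin ligase (6687 bp), and of a lncRNA near MED13L (6444 bp).

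H3K4m1-only intervals sat mainly in introns and between genes. Midpoints lay in introns of coding genes in 44.7% (43.8 to 45.5%), between annotated genes in 37.9% (37.1 to 38.7%) and in introns of non-coding genes in 13.8% (13.2 to 14.4%). With H3K9Ac these shares were 43.7% (42.9 to 44.5%), 34.0% (33.3 to 34.8%) and 14.4% (13.9 to 15.02%), and in the tiles 39.3%, 40.3% and 16.4%. The TSS of a non-coding transcript lay inside 2.66% (2.41 to 2.94%) of H3K4m1-only intervals and 11.6% (11.1 to 12.1%) of those with H3K9Ac. The median distance to a coding TSS was 36110.5 bp, and to an H3K9Ac peak 16961 bp. An H3K9Ac peak was less than 10 kb away from 35.8% (35.1 to 36.6%) and less than 100 kb from 89.1% (88.5 to 89.6%). By chromosome, they made up from 37.5% (34.4 to 40.7%) of distal H3K4m1 intervals on chromosome 19 and 39.1% (36.2 to 42.1%) on 16 to 50.7% (46.7 to 54.6%) on 18 and 52.3% (48.1 to 56.5%) on X.

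Most intervals had no other H3K4m1-only interval at close range, although 69.2% (68.5 to 69.98%) had an H3K4m1 interval of some class less than 20 kb away. Joined where no more than 20 kb apart, they formed 11005 runs, of which 8730 were single intervals (61.9% of all), and 52 runs held 5 or more. The longest had 7 intervals and there were 4 of these, among them chr4:95438095-95517003 in PDLIM5, a cytoskeletal adaptor, with fold enrichments of 2.94 to 3.86, and chr2:236224711-236287494, outside coding genes, with 3.11 to 5.33. A run of 6 lay in VWF, the von Willebrand factor gene of endothelium and platelets, at chr12:6153319-6200169, with fold enrichments of 3.12 to 6.48 and 2 intervals under CTCF peaks.

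By gene, 3606 of 20162 coding genes (17.9%) held at least 1 H3K4m1-only midpoint, at 0.501 per 100 kb of gene body. CAMTA1 and RUNX1, a hematopoietic and epithelial transcription factor, held 16 each, beside 12 and 22 intervals with H3K9Ac. CDKAL1, IQCJ-SCHIP1, RAD51B and THSD4 held 15 each, with 17, 6, 52 and 14 intervals with H3K9Ac. RAD51B, a homologous recombination gene, thus had far more acetylated than H3K4m1-only intervals. GSE1, HIVEP3 and PARD3, a polarity protein, held 14 each. TNS3, which encodes the focal adhesion protein tensin 3, was the densest of the 10 genes with the highest counts: its 307-kb body held 13, or 4.23 per 100 kb, and 2 intervals with H3K9Ac. These genes are long, and the counts were chosen as the highest.

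Near the TSS of listed genes the intervals were counted within 100 kb, where 63.6% of the 19820 coding genes had at least 1. Lists of epithelial and signaling programs had higher shares, though not all beyond their intervals. Of 18 YAP and TEAD target genes 17 had one, 94.4% (74.2 to 99.0%), with 13 at ASAP1, 8 at TEAD1 and 0 at TGFB2. Of 24 intestinal and colonic transcription factors 21 had one, 87.5% (69.0 to 95.7%). HES1, the Notch effector, had 8 and SPDEF, a goblet cell factor, 7. VDR, the vitamin D receptor, had 5 and, within the same distance, no distal interval with H3K9Ac. Of 25 epithelial adhesion and keratin genes 21 had one, 84.0% (65.3 to 93.6%), with 9 at LAMA3, a laminin chain. Of 23 Wnt target and feedback genes 19 had one, 82.6% (62.9 to 93.0%), with 7 each at MYC and EPHB2. Of 19 EGF receptor and MAPK feedback genes 15 had one, 78.9% (56.7 to 91.5%), with 10 at SPRY4, a MAPK inhibitor. Of 17 AP-1 and EGR family genes 12 had one, 70.6% (46.9 to 86.7%), led by FOSL2 and NR4A1 with 6 each, and EGR1 had 0. Distal intervals with H3K9Ac also lay within 100 kb of many of these genes, at 88.9% (67.2 to 96.9%) of the YAP and TEAD list, 79.2% (59.5 to 90.8%) of the intestinal, 88.0% (70.04 to 95.8%) of the epithelial and 88.2% (65.7 to 96.7%) of the AP-1 and EGR list, beside 65.1% of all coding genes.

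Lists of programs foreign to a colon carcinoma line were not uniformly lower. Of 18 mesenchymal genes 16 had one, 88.9% (67.2 to 96.9%), led by SNAI1 with 7, and of 18 muscle genes 15, 83.3% (60.8 to 94.2%), led by RYR1 with 5. Of 20 blood cell genes 14 had one (interval 48.1 to 85.5%), with 4 at CD3D, CD3E and CD3G, which share one locus. Of 20 neuronal genes 11 had one (34.2 to 74.2%), and of 15 liver genes 7, 46.7% (24.8 to 69.9%). Within 100 kb, the intervals of the YAP and TEAD, intestinal, epithelial and mesenchymal lists lay above the 63.6% of all coding genes, and those of the other lists included it. Genes that share a locus, such as the CD3 genes and some keratin and claudin genes of the epithelial list, were counted separately. The Wilson intervals of such lists may therefore be too narrow. The order of the lists against all coding genes depended on the distance. Within 50 kb, where 42.8% of all coding genes had one, the mesenchymal list included the share of all genes (61.1%, 38.6 to 79.7%), and the Wnt (73.9%, 53.5 to 87.5%) and EGF receptor and MAPK (68.4%, 46.0 to 84.6%) lists lay above it with the YAP and TEAD, intestinal and epithelial lists. Within 200 kb, with 82.4% of all coding genes, only the interval of the epithelial list lay above it.

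At the limits of the rule, 416 H3K4m1-only intervals lay up to 1 kb beyond the 5-kb distance, with a median width of 853 bp and fold enrichment of 3.51, beside 376 otherwise alike up to 1 kb inside it with 775 bp and 3.52. The 180 with an H3K9Ac peak less than 1 kb away had medians of 3.41 and 639 bp, beside 3.46 and 533 bp for 195 distal intervals of which less than 200 bp was covered by H3K9Ac. The choice also rests on the unfiltered lists: with H3K9Ac, H3K4m3 and H3K36m3 peaks held to the limits of the Methods (q-value below 1e-10 and fold enrichment above 5), 1767 distal H3K4m1 intervals overlapped H3K9Ac and 28410 were H3K4m1-only. Those limits kept 12720 of 34164 H3K9Ac peaks, 12749 of 16112 H3K4m3 peaks and only 90 of 40010 H3K36m3 peaks, so H3K36m3 excluded almost nothing there.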

How the data were processed

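HCT116 PIXUL-ChIP-seq was analysed from 6 peak lists that the authors deposited, 1 per mark; H3K27Ac was not analysed here. Molecular identifiers in the libraries allowed removal of PCR duplicates. According to the Methods, the authors used BWA 0.7.12 for alignment to hg19 and MACS2 in broad mode, at a cutoff of 0.1, for peaks. The submitters' processing notes name MACS 1.4.2, BWA 0.7.12, SAMtools 0.1.19 and bcl2fastq 2.20.0.442. Per the Methods, peaks past q-value and fold limits were kept: 1e-03 and 2 for H3K4m1 and H3K27m3, and 1e-10 and 5 for the other marks. The deposited lists are unfiltered. The deposited fold enrichment is a ratio over the caller's background, and the deposited −log10 p-value and −log10 q-value belong to whole peaks.

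From these lists, intervals were classed by overlap of at least 1 bp and by distance to 78703 coding TSS positions of GENCODE 44 on hg19. Distal tiles are the 5115478 windows of 500 bp without unknown bases, over 5 kb from a coding TSS. The scripts ran on Python 3.11.15 (numba 0.67.0, scipy 1.17.1, pandas 2.3.3 and numpy 2.4.6). Copies were searched with minimap2 2.31-r1302, at 95% identity over 50% of an interval. The code was tested on simulated data, and bedtools 2.31.1 gave the same 14108 intervals, with 0 differing. Soft-masked repeats were not measured, as the sequence used carries no masking.

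The intervals, lists and motifs were chosen with earlier results of these data known. Named intervals are the 10 highest and 3 widest, those under the 3 highest CTCF and H3K27m3 peaks, and the highest with each shown motif. Named genes are the 10 with most intervals in the body and the leading genes of each list; EGR1, TGFB2, VDR, SPDEF, TEAD1, EPHB2, NR4A1, CD3E and CD3G were added after their counts were seen. The alternatives changed TSS sets and distances, peak limits, overlaps, windows, GC ranges and gene distances.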

Additional observations from a re-analysis of the deposited data

How the results depend on the processing

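No paired analysis was possible because only 1 library was made for each mark. The number of H3K4m1-only intervals depended most on peak limits. It was 5383 with the limits on the H3K4m1 list, 5372 with its fold limit raised by 1.5 times and 28410 with the limits on the H3K9Ac, H3K4m3 and H3K36m3 lists, against 14108. By construction fewer excluding peaks leave more intervals. The other 7 alternatives kept it within 1.5 times. In the order limits on H3K4m1, limits on the excluding lists, limits on all 4 lists, raised fold limit and exclusion at 50% covered, the median fold enrichment was 4.12, 3.85, 4.52, 4.12 and 3.65, and the median width 1037, 1159.5, 1677, 1037 and 989 bp.

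The CTCF share was below that of intervals with H3K9Ac under all 13 alternatives. It was 13.2% with the TSS of every transcript, 21.1% with limits on the excluding lists, 22.5% with limits on all 4, 15.8% with exclusion at 50%, 9.94% with limits on the CTCF list, 14.98% within 1 kb of the midpoint and 12.6% in the central 500 bp. The H3K27m3 share was above that of intervals with H3K9Ac under all 13, by a small margin in most, but not in each subset: it was below it up to 500 bp in width (4.15% beside 6.77%) and under a fold enrichment of 3 (2.85% beside 8.00%). It was 4.66% and 4.65% with the limits and the raised fold limit on H3K4m1, 3.93% with limits on the excluding lists, 0.695% (beside 0.689% with H3K9Ac) with limits on the H3K27m3 list, 2.998% (beside 1.42%) at 50% covered and 3.54% in the central 500 bp. The intron share was 58.5% with all annotated genes.

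The AP-1 share was 30.3% in central 300-bp and 57.9% in central 1000-bp windows, and 43.5% at 45 to 50% GC, each above that with H3K9Ac. Without CTCF peaks it was 45.4%, then 48.7%, 47.0% and 28.0% at 500 to 1000, 1000 to 2000 and over 2000 bp, and below that with H3K9Ac in the last 2. The share of coding genes with an interval was 42.8% within 50 kb and 82.4% within 200 kb. The central 500 bp and the CTCF, width and repeat subsets were chosen after seeing the data. The depth, unknown here, limits which intervals of all lists were called, so an interval without a called H3K9Ac peak may still carry H3K9Ac.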
